A study of Mus musculus with 2 samples.

Results

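The genes described here mark the walls of blood and lymph vessels, and 40 of them were chosen by name from 55536 annotated genes, 22015 of which are protein-coding genes outside the mitochondrial genome. They fall into 10 groups by role, and each was found under its symbol in the annotation. Their levels were read in total RNA sequencing of whole adrenal gland from male mice aged 14 days. All mice were of the B6CASTF1/J background, the F1 cross of the C57BL/6J and CAST/EiJ strains, and carried no transgene or treatment that the labels name. The series holds 1 group of 2 libraries, called replicate 1 and replicate 2, each made from 300 ng of RNA with a directional kit and ERCC spike-ins. The labels speak of pools with the wording 3x Males and give the libraries the same pool number in one field and different numbers in another, so it is not known whether the SD between them covers separate animals. A single group allows no contrast between conditions and no test, and each value is given per library or as a mean with its SD (n = 2).

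Blood vessels are lined by endothelial cells that are joined by cadherin and claudin contacts. Mural cells surround them, as pericytes on capillaries and as smooth muscle on arteries and veins. Endothelial growth is driven by vascular endothelial growth factors (VEGF) acting on receptor tyrosine kinases, and vessel stability by angiopoietins acting on the Tie receptors, while platelet-derived growth factor from endothelium recruits pericytes. In the adrenal gland the cortex is crossed by fenestrated sinusoidal capillaries that run from the capsule to the medulla, and steroid-producing cells are a known source of VEGF-A.

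The libraries held 32963248 and 36260745 expected counts in replicates 1 and 2, of which 17154352 and 19024838 lay on nuclear protein-coding genes. Levels are in TPM, a transcript's share of all transcripts in a library after scaling by its length, taken from the deposited RSEM tables. Markers of the adrenal gland were present in both, and all 8 cortical and all 8 medullary genes listed reached at least 1 TPM in each. The libraries stood apart in other cell types. The summed level of 10 lymphocyte genes was 100.4 TPM in replicate 1 and 14.05 in replicate 2, and all 10 were over 2-fold higher in replicate 1. The summed level of 10 hepatocyte genes was 314.5 TPM in replicate 1 and 5464 in replicate 2, and all 10 were over 2-fold higher in replicate 2. Fat genes were high in both, with a summed level over 8 genes of 3039 TPM in replicate 1 and 3037 TPM in replicate 2. Vessels of lymph node, liver and fat therefore cannot be told apart from those of the gland in the values below, and in bulk tissue fewer cells of a type cannot be told apart from less RNA per cell.

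Most of the chosen vessel genes were detected. Of the 40 genes, 38 reached at least 1 TPM in both libraries, against 54.2% of all nuclear protein-coding genes. The 2 exceptions were growth factors, Pgf and Angpt2. The median of the 38 was 12.7 TPM, against 8.88 TPM over all nuclear protein-coding genes detected in both libraries. The 40 genes were chosen with earlier results of these data known, so both contrasts may reflect the choice. The 40 genes together took 0.279% of nuclear protein-coding TPM in replicate 1 and 0.249% in replicate 2, a mean of 0.264 ± 0.0215% (SD, n = 2), and Vegfa alone made up 15.8% of their sum. Ordered by mean level, most neighbours were not separated: the range of the higher gene lay clear of the next lower one in 10 of 39 neighbouring pairs. Those breaks fell below Vegfa, Egfl7, Kdr, Aplnr, Sox18, Tek, Vwf, Angpt1, Apln and Angpt2.

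**Figure D1:**
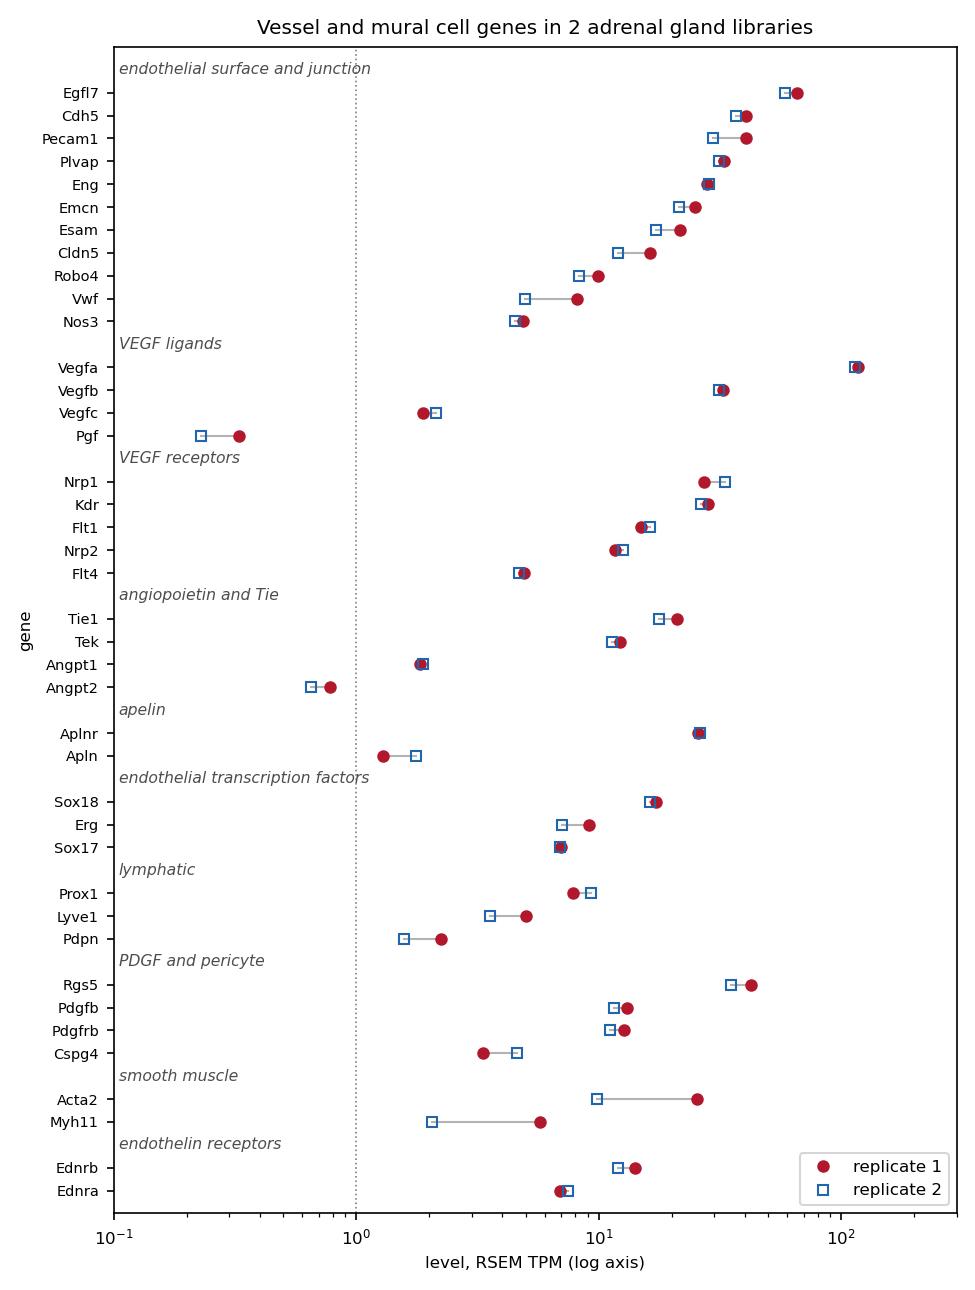
Level of the 40 genes in RSEM TPM on a log axis, grouped by role, with filled circles for replicate 1, open squares for replicate 2 and a dotted line at 1 TPM. Vegfa lies highest, with 117 TPM in replicate 1 and 114 TPM in replicate 2, Pgf lies lowest, and the 2 smooth muscle genes show the widest gaps between the symbols.

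The endothelial surface and junction genes were all detected, 11 of 11. Of these, 10 were somewhat higher in replicate 1, against 62.5% of all nuclear protein-coding genes whose mean reached 1 TPM. The exception was Eng, which turned round with spike-in scaling, as Plvap did with TMM scaling (edgeR's trimmed mean of M-values). Cdh5, the VE-cadherin of endothelial junctions, had 40.5 TPM in replicate 1 and 36.9 TPM in replicate 2. Pecam1, the endothelial adhesion molecule CD31, had 40.5 TPM in replicate 1 and 29.7 TPM in replicate 2. These genes were near each other in replicate 1, and in replicate 2 Pecam1 was the lower, with a count ratio of 1.34 (replicate 1 over replicate 2). Plvap, which forms the diaphragms of fenestrae and caveolae, had 32.8 TPM in replicate 1 and 31.2 TPM in replicate 2. Eng, the TGF-beta co-receptor endoglin, had 27.9 TPM in replicate 1 and 28.6 TPM in replicate 2. Both were steady between the libraries, and Plvap stood above Cldn5, the claudin that seals tight barriers, which had 16.2 TPM in replicate 1 and 12.0 TPM in replicate 2. Emcn, the sialomucin endomucin of capillaries and veins, averaged 23.2 ± 2.59 TPM, Esam, a junctional adhesion molecule, averaged 19.4 ± 3.04 TPM, and Robo4, an endothelial guidance receptor, averaged 9.13 ± 1.13 TPM (SD, n = 2 each). Nos3, the endothelial nitric oxide synthase, was low at 4.70 ± 0.240 TPM.

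Egfl7, a secreted endothelial factor whose gene also holds the microRNA gene Mir126a, was the highest of this group with 65.9 TPM in replicate 1 and 58.6 TPM in replicate 2. Much of that level lay on transcripts not annotated as protein-coding, which took 50.5% of its TPM as a mean of both libraries by RSEM and 34.5% by kallisto, a second quantification of the same reads. On coding transcripts alone Egfl7 had 31.6 TPM in replicate 1 and 29.9 TPM in replicate 2. Its exons overlap those of Agpat2 on the opposite strand, which had 72.2 TPM in replicate 1 and 109 in replicate 2. The strand setting of the counting is not given in the sources used here, so reads in the shared stretch cannot be assigned with certainty. The same holds for Eng, which overlaps Fpgs on the opposite strand, a gene with 4.32 TPM in replicate 1 and 9.65 TPM in replicate 2.

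Vwf, the platelet-binding von Willebrand factor, showed a difference that depended on how its transcripts were counted. Its gene level was 8.14 TPM in replicate 1 and 4.98 TPM in replicate 2, a ratio of 1.63 (replicate 1 over replicate 2). Its expected counts were 1028 in replicate 1 and 861 in replicate 2, a ratio of 1.32 per nuclear protein-coding count (95% counting interval 1.21 to 1.45). These intervals are exact and cover counting error only, not the spread between animals. A transcript of 456 bases without a reading frame carried 2.80 TPM on 32.8 counts in replicate 1 and 1.23 TPM on 15.7 counts in replicate 2. The full-length coding transcript, with 2813 codons, had 2.74 TPM in replicate 1 and 2.30 TPM in replicate 2. On coding transcripts alone the ratio was 1.23 by RSEM and 1.24 by kallisto.

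The VEGF ligands spanned a wide range and were led by Vegfa. Vegfa had 117 TPM in replicate 1 and 114 in replicate 2, and Vegfb, a ligand of the receptor Flt1, had 32.6 TPM in replicate 1 and 31.4 TPM in replicate 2. Vegfa was 3.60-fold above Vegfb, with a log2 ratio of 1.85 ± 0.0150 (SD, n = 2), but only 2.29-fold on coding transcripts alone, where the SD of the log2 ratio was 0.0222. Vegfc, the ligand that drives lymphatic growth, had 1.89 TPM in replicate 1 and 2.13 TPM in replicate 2. Vegfa was 57.5-fold above it, and 36.0-fold on coding transcripts alone. Pgf, the placental growth factor, had only 14.0 counts in replicate 1 and 12.0 counts in replicate 2, so that its level of 0.280 ± 0.0707 TPM is imprecise. By kallisto it was over 2-fold apart, with 0.760 TPM in replicate 1 and 0.254 TPM in replicate 2. Vegfd, a lymphatic ligand that is not among the 40 genes, averaged 11.7 ± 1.84 TPM. Among genes that control VEGF signalling, Epas1, which encodes the oxygen-regulated factor HIF-2alpha, averaged 60.6 ± 0.580 TPM, and Plxnd1, an endothelial semaphorin receptor, averaged 43.8 ± 3.93 TPM. In this list of 11 modulators, 9 were detected in both libraries and none of those 9 was over 2-fold apart.

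The gene Vegfa lies on chromosome 17 and makes proteins that differ in a pair of alternative exons near the end of the reading frame. Those exons encode the basic stretches that bind heparin and hold the protein in the matrix, so the choice sets how far the ligand can spread. The exons are shown because the isoform classes below are defined by them; capitals mark the exon, and the lower-case bases at each end belong to the neighbouring exons, from the GENCODE annotation on the minus strand of GRCm38 (mm10).
Vegfa shorter alternative exon, chr17:46022277-46022348: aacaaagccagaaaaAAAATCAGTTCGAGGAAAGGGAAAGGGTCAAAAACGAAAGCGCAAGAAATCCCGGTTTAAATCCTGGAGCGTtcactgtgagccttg
Vegfa longer alternative exon, chr17:46020991-46021122: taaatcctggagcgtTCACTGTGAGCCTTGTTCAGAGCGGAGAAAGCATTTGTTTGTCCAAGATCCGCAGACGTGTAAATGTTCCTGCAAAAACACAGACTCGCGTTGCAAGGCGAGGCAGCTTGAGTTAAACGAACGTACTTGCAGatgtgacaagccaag

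The shorter exon has 72 bases and the longer one 132 bases. Transcripts with the longer exon alone, which encode the VEGF164 type, took 51.4% of coding Vegfa TPM in replicate 1 and 60.2% in replicate 2. Transcripts with both exons, the matrix-held VEGF188 type, took 26.1% in replicate 1 and 22.7% in replicate 2. Transcripts with neither exon, the freely diffusing VEGF120 type, took 22.5% in replicate 1 and 17.1% in replicate 2. The order of the longer-exon class above the others held in both libraries and in both quantifications, while the classes with both exons and with neither lay close together by RSEM and further apart by kallisto, at 30.7 ± 1.36% and 14.4 ± 0.955% (SD, n = 2 each). A transcript with the shorter exon alone was at 0 by RSEM and at 6.19 ± 1.02% by kallisto. Of all Vegfa TPM, 37.3 ± 0.929% lay on 5 retained-intron transcripts, which held 774 of the gene's 7462 expected counts in replicate 1 and 818 of 8274 in replicate 2. Short transcripts thus carried a larger share of TPM than of counts, and on coding transcripts alone Vegfa had 72.4 TPM in replicate 1 and 72.2 TPM in replicate 2.

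Vegfb was expressed as a pair of coding forms in nearly equal amounts. The longer transcript, with 207 codons, keeps a segment that changes the reading frame of the protein's end from a heparin-binding to a soluble form, and it took 48.4% of coding TPM in replicate 1 and 47.9% in replicate 2. The shorter transcript, with 188 codons, lacks the segment and took 51.6% in replicate 1 and 52.1% in replicate 2. Shares by kallisto were 47.7 ± 0.577% for the long form and 52.3 ± 0.577% for the short form (SD, n = 2 each). The segment of 101 bases that separates them is shown in capitals, with its neighbouring bases in lower case, from the GENCODE annotation on the minus strand of GRCm38.
Vegfb long-form segment, chr19:6985496-6985596: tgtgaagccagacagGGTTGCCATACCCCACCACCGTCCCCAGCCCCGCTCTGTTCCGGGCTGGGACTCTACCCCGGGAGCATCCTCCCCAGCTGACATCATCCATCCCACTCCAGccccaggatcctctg

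All 5 VEGF receptors were detected, and 3 of them were lower in replicate 1, or 4 with TMM scaling, which turned Flt4 round. Kdr, the main signalling receptor VEGFR2, had 28.3 TPM in replicate 1 and 26.3 TPM in replicate 2. Flt1, the receptor VEGFR1, which binds VEGF tightly and signals weakly, had 14.96 TPM in replicate 1 and 16.2 TPM in replicate 2. Kdr was 1.75-fold above Flt1, with a log2 ratio of 0.81 ± 0.154 (SD, n = 2). On coding transcripts alone it was 2.15-fold above Flt1, with a log2 ratio of 1.11 ± 0.0712 (SD, n = 2). Flt4, the lymphatic receptor VEGFR3, had 4.91 TPM in replicate 1 and 4.71 in replicate 2, and Kdr was 5.67-fold above it. The co-receptor Nrp1, used mainly by arterial endothelium, had 27.1 TPM in replicate 1 and 33.1 TPM in replicate 2. Its counts gave a ratio of 0.831 (95% counting interval 0.793 to 0.872), so it ran lower in replicate 1 beyond counting error. The co-receptor Nrp2, used by veins and lymphatics, had 11.6 TPM in replicate 1 and 12.6 TPM in replicate 2.

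Receptor transcripts included a soluble form. A transcript that ends early and encodes 688 codons of the receptor's extracellular part took 32.0% of coding Flt1 TPM in replicate 1 and 33.5% in replicate 2. The full receptor, with 1333 codons, took the remaining 68.0% in replicate 1 and 66.5% in replicate 2. By kallisto the soluble share was 32.6 ± 1.09% (SD, n = 2). Soluble Flt1 is a known decoy that binds VEGF without signalling, and its share was nearly the same in both libraries and both quantifications. For Nrp2 the membrane tails called a and b are alternative ends of the protein. Tail b took 31.2% of coding TPM in replicate 1 and 40.4% in replicate 2, tail a without its optional middle exon took 41.8% in replicate 1 and 39.1% in replicate 2, and tail a with that exon took 27.0% in replicate 1 and 20.5% in replicate 2. By kallisto the means were 35.5 ± 4.65% for tail b, 44.7 ± 0.826% for tail a and 19.8 ± 5.48% for tail a with the exon (SD, n = 2 each). Kdr and Nrp1 were dominated by a single coding transcript in both libraries, at a mean of 93.3 ± 0.392% of all Kdr TPM and 90.4 ± 2.17% of all Nrp1 TPM by RSEM (SD, n = 2 each). Pecam1 was spread over 6 coding transcripts whose shares differed between the tools: the form of 697 codons led by RSEM at 30.2 ± 0.338%, and the form of 727 codons led by kallisto at 43.5 ± 2.23% (SD, n = 2 each).

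**Figure D2:**
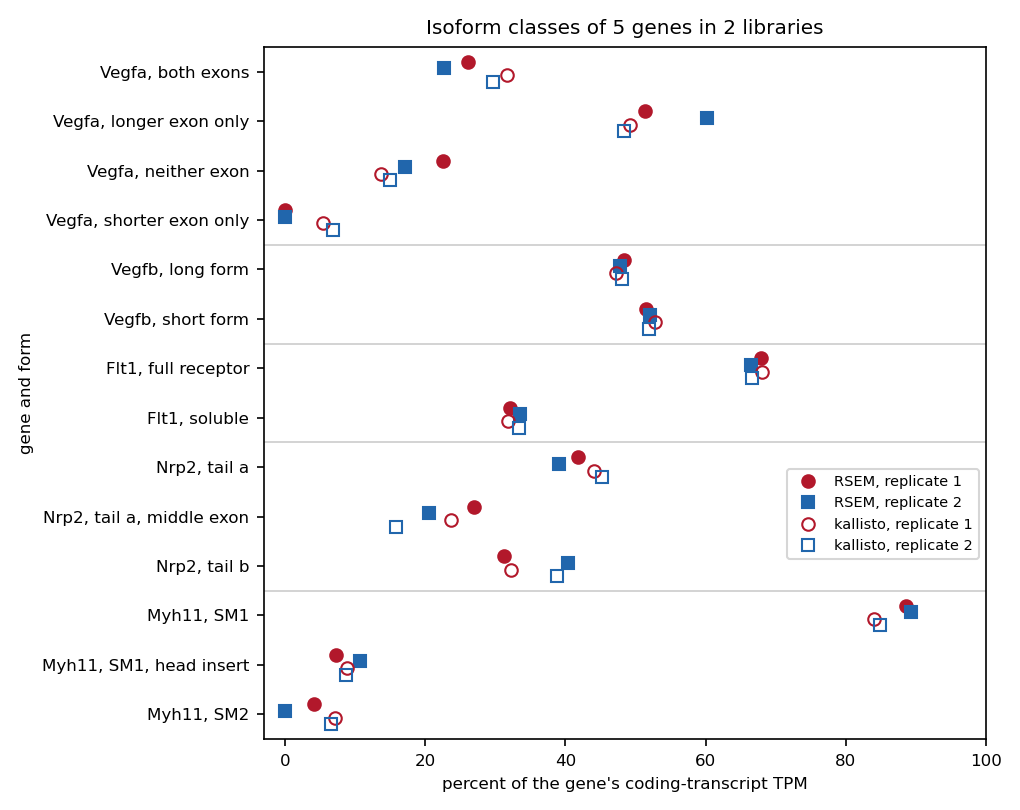
Percent of each gene's coding-transcript TPM on each isoform class for Vegfa, Vegfb, Flt1, Nrp2 and Myh11, with filled symbols for RSEM, open symbols for kallisto, circles for replicate 1 and squares for replicate 2. All 4 symbols lie together for Vegfb and Flt1, whereas the Vegfa class with neither exon differs between RSEM at 22.5% and 17.1% in replicates 1 and 2 and kallisto at a mean of 14.4%.

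In the angiopoietin system the receptors were far above the ligands. Tie1, the orphan receptor that partners with Tek, had 21.1 TPM in replicate 1 and 17.7 TPM in replicate 2. Tek, the angiopoietin receptor Tie2, had 12.2 TPM in replicate 1 and 11.3 TPM in replicate 2. Angpt1, the activating ligand made by mural and stromal cells, had 1.83 TPM in replicate 1 and 1.88 TPM in replicate 2. Angpt2, the context-dependent antagonist stored in endothelium, had 0.780 TPM in replicate 1 and 0.650 TPM in replicate 2. Angpt1 was 2.60-fold above Angpt2, with a log2 ratio of 1.38 ± 0.213 (SD, n = 2). Angpt2 rested on 89.0 counts in replicate 1 and 80.0 counts in replicate 2. Ptprb, the phosphatase that restrains Tek, averaged 17.0 ± 0.233 TPM.

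The apelin pair showed the same order of receptor above ligand. Aplnr, the G-protein-coupled apelin receptor of venous and capillary endothelium, had 25.6 TPM in replicate 1 and 26.3 TPM in replicate 2. Apln, the peptide made by sprouting tip cells, had 1.29 TPM in replicate 1 and 1.77 in replicate 2. The level of Aplnr depended on the quantification. A fragment of 313 bases took 35.6% of its TPM in replicate 1 and 37.7% in replicate 2 by RSEM and was at 0 in both libraries by kallisto. The full transcript had 16.5 TPM in replicate 1 and 16.4 TPM in replicate 2 by RSEM, and 24.4 TPM in replicate 1 and 24.0 TPM in replicate 2 by kallisto.

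The 3 endothelial transcription factors, all detected, included Sox18 at 16.8 ± 0.643 TPM, Erg, the ETS factor of endothelial identity, at 8.09 ± 1.46 TPM, and Sox17, an arterial factor, at 6.95 ± 0.0283 TPM (SD, n = 2 each). Erg was the least steady, with 9.12 TPM in replicate 1 and 7.06 TPM in replicate 2. In a further list of 10 factors used by endothelium, all 10 were detected in both libraries and none was over 2-fold apart. Klf2, the flow-induced factor, averaged 22.7 ± 3.90 TPM and Ets1, which lymphocytes also express, averaged 20.5 ± 6.10 TPM. Of the genes of arterial identity and Notch signalling, 9 of 12 were detected in both libraries and none was over 2-fold apart. Notch4, an endothelial Notch receptor, averaged 9.84 ± 0.884 TPM and Notch1 averaged 8.47 ± 1.48 TPM. Of 6 venous genes, only 3 were detected in both libraries. The list was led by Nr2f2, the COUP-TFII factor that sets venous identity, at 26.4 ± 2.45 TPM and Ephb4, the venous ephrin receptor, at 18.1 ± 0.707 TPM.

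The list of fenestrated and sinusoidal vessel genes had a higher summed level than the brain barrier list, which is shorter. Most of the sinusoid sum came from Aqp1 and Gpihbp1, which are genes of capillaries more widely. Of 8 genes in the sinusoid list, 7 were detected in both libraries, and the summed level was 181 TPM in replicate 1 and 158 TPM in replicate 2. Aqp1, a water channel of capillary endothelium, averaged 79.2 ± 10.9 TPM, and Gpihbp1, which carries lipoprotein lipase onto capillaries and is high in fat, averaged 41.5 ± 6.43 TPM. Stab1, a scavenger receptor of sinusoidal endothelium and macrophages, averaged 20.5 ± 0.608 TPM. Ehd3 averaged 19.6 TPM, and Stab2, Fcgr2b and Oit3 were low, with means of 3.6, 2.3 and 1.7 TPM. Clec4g, a lectin of liver sinusoids, was the only gene of the list over 2-fold apart, with 0.690 TPM in replicate 1 and 1.99 in replicate 2, the direction of the hepatocyte genes. Whether liver vessels contributed was not tested. In the brain barrier list, 3 of 6 genes were detected in both libraries, with a summed level of 25.8 TPM in replicate 1 and 20.8 TPM in replicate 2, led by Slc7a5 at 11.8 ± 0.926 TPM and Lef1 at 5.0 ± 3.10 TPM (SD, n = 2 each). Slc7a5 carries amino acids and is not restricted to endothelium. Lef1, also a T cell factor, had 7.19 TPM in replicate 1 and 2.81 in replicate 2, the direction of the lymphocyte genes. Mfsd2a, the lipid transporter of the barrier, which liver also makes, had 0.730 TPM in replicate 1 and 1.54 in replicate 2.

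The lymphatic genes were all detected at moderate or low levels. Prox1, the transcription factor that sets lymphatic identity and is also expressed in hepatocytes and other cells, had 7.80 TPM in replicate 1 and 9.30 TPM in replicate 2. Lyve1, the hyaluronan receptor of lymphatic capillaries and of some macrophages and sinusoids, had 5.0 TPM in replicate 1 and 3.55 TPM in replicate 2. Pdpn, the lymphatic and stromal mucin podoplanin, had 2.23 TPM in replicate 1 and 1.58 TPM in replicate 2 on 126 and 97.0 counts, a count ratio of 1.44 (95% counting interval 1.10 to 1.90). Lyve1 and Pdpn were higher in replicate 1 and Prox1 was lower there. The 450 counts of Lyve1 in replicate 1 and 289 counts in replicate 2 gave a ratio of 1.73 (95% counting interval 1.49 to 2.01). On its coding transcript the gap in TPM was wider than on the gene, with 4.87 TPM in replicate 1 and 2.69 TPM in replicate 2, a ratio of 1.81. A retained-intron transcript of 802 bases took 2.60% of Lyve1 TPM in replicate 1 and 24.2% in replicate 2 by RSEM, and 4.72% in replicate 1 and 24.2% in replicate 2 by kallisto. It rested on 3.06 counts in replicate 1 and 21.7 counts in replicate 2.

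Other lymphatic genes moved in both directions between the libraries. Of 8 listed genes, 6 were detected in both libraries, and of the 7 whose mean reached 1 TPM, 2 were over 2-fold higher in replicate 1 and 1 was over 2-fold lower. Over all nuclear protein-coding genes at that mean, 2.52% were over 2-fold higher in replicate 1 and 3.37% over 2-fold lower. Ccl21a, the chemokine of lymphatic endothelium and of lymph node stroma, had 44.8 TPM in replicate 1 and 2.38 TPM in replicate 2. Its near-identical copies can share reads, so the assignment to this copy is uncertain. Mmrn1, a lymphatic and platelet matrix protein, had 1.83 TPM in replicate 1 and 0.440 TPM in replicate 2. Reln, secreted by lymphatic endothelium and also by neurons and liver, had 1.96 TPM in replicate 1 and 4.27 TPM in replicate 2. Vegfd, the second highest of the list, was closer, with 10.4 TPM in replicate 1 and 13.0 TPM in replicate 2.

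High endothelial venules are the lymph node vessels through which lymphocytes enter, and the summed level of their genes was far higher in replicate 1. Glycam1, their secreted mucin, had 966 counts in replicate 1 and none, 0, in replicate 2. Per nuclear protein-coding count, with 3 counts set as the floor of replicate 2, this is at least 357-fold higher in replicate 1. The exact 95% counting interval used for the other genes is two-sided and allows more counts in replicate 2, and it begins at 289.9. Ackr1, a chemokine-binding protein of venules, had 1.61 TPM in replicate 1 and 0.750 in replicate 2. Over the 5 listed genes the sum was 61.1 TPM in replicate 1, of which 55.4 lay on Glycam1, and 1.35 TPM in replicate 2. All 5 were higher in replicate 1, but none of them reached 1 TPM in both libraries. Chst4 was under 2-fold apart, at 1.04 and 0.57 TPM in replicates 1 and 2. Lymphocyte genes moved the same way, with the summed levels given above, and the part of lymph node tissue in these values or in the 40 genes was not tested.

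The genes of the pericyte group were all detected, 4 of 4, and Cspg4 had the widest gap among them. Rgs5, a regulator of G-protein signalling that marks pericytes, had 42.3 TPM in replicate 1 and 35.1 in replicate 2, a range that overlaps those of Cdh5 and Pecam1. Pdgfb, the endothelial ligand that recruits pericytes, had 13.1 TPM in replicate 1 and 11.6 TPM in replicate 2. Its receptor on pericytes, Pdgfrb, had 12.8 TPM in replicate 1 and 11.2 TPM in replicate 2. Ligand and receptor were thus nearly equal, with a log2 ratio of 0.05 ± 0.0102, which was -0.12 ± 0.0141 on coding transcripts alone (SD, n = 2 each). Cspg4, the pericyte proteoglycan NG2, had 3.32 TPM in replicate 1 and 4.59 TPM in replicate 2. Its coding transcript alone had 2.13 TPM in replicate 1 and 1.96 TPM in replicate 2 by RSEM, the opposite direction, and 3.43 TPM in replicate 1 and 4.02 TPM in replicate 2 by kallisto. In a further list of 10 pericyte genes, 8 were detected in both libraries. Of the 8 whose mean reached 1 TPM, 2 were over 2-fold lower in replicate 1 and none over 2-fold higher. Over all nuclear protein-coding genes at that mean, 3.37% were over 2-fold lower in replicate 1 and 2.52% over 2-fold higher. Vtn, vitronectin, a major hepatocyte product, had 6.36 TPM in replicate 1 and 76.4 TPM in replicate 2. Anpep, an aminopeptidase also made by liver and other epithelia, had 3.26 TPM in replicate 1 and 8.23 TPM in replicate 2. Both moved in the direction of the hepatocyte genes, and whether liver tissue contributed was not tested. Mcam, an adhesion molecule of endothelium and pericytes, averaged 19.01 ± 1.98 TPM.

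Among the 40 genes, the 2 smooth muscle genes differed most between the libraries in RSEM TPM. Acta2, the smooth muscle actin, had 25.5 TPM in replicate 1 and 9.84 TPM in replicate 2. Its 1362 counts in replicate 1 and 535 counts in replicate 2 gave a ratio of 2.82 per nuclear protein-coding count (95% counting interval 2.55 to 3.13). Myh11, the smooth muscle myosin heavy chain, had 5.71 TPM in replicate 1 and 2.05 TPM in replicate 2. Its 1173 counts in replicate 1 and 456 counts in replicate 2 gave a ratio of 2.85 (95% counting interval 2.56 to 3.19). Both genes shifted by nearly the same factor, and their log2 ratio to each other within a library was 2.21 ± 0.0748 (SD, n = 2). Acta2 was the 1 member over 2-fold apart among the 29 with a mean of at least 5 TPM. The background of the same call was 0.481% of 8314 nuclear protein-coding genes higher in replicate 1, 2.27% higher in replicate 2 and 2.75% in either direction. Where the mean reached 1 TPM, 2 of 38 members were called, Acta2 and Myh11, against a background of 2.52% of 12535 genes higher in replicate 1, 3.37% higher in replicate 2 and 5.89% in either direction. Where it reached 20 TPM none of 12 members was called, against 0.179%, 2.4% and 2.58% of 2790 genes in the same order.

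**Figure D3:**
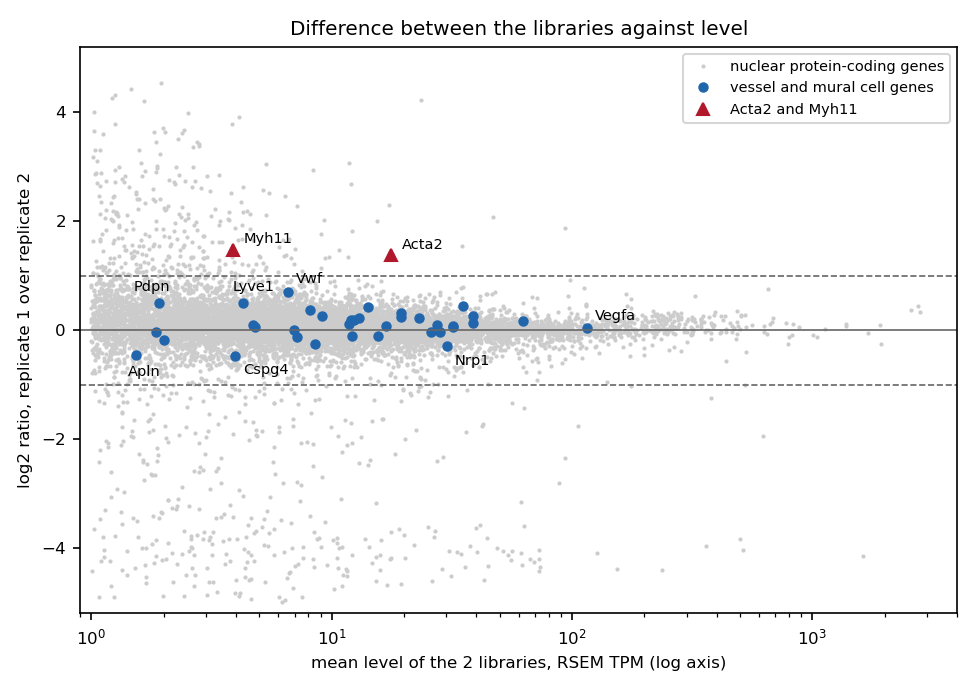
Log2 ratio of replicate 1 over replicate 2 against mean RSEM TPM on a log axis for nuclear protein-coding genes in grey, the vessel and mural cell genes whose mean reached 1 TPM as blue circles and Acta2 and Myh11 as red triangles, with dashed lines at 2-fold and genes beyond the axis limits not drawn. Acta2 and Myh11 lie above the upper dashed line, and the 36 other genes lie between the dashed lines.

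The other contractile genes shifted less, or only at low levels. Of 10 further smooth muscle genes, 6 were detected in both libraries, and of the 7 whose mean reached 1 TPM, 6 were higher in replicate 1, 1 of them by over 2-fold. That was Cnn1, the calponin of differentiated smooth muscle, with 1.90 TPM in replicate 1 and 0.150 in replicate 2. Below a mean of 1 TPM, Actg2 had 1.33 TPM in replicate 1 and 0.53 in replicate 2, and Lmod1 had 0.99 and 0.47. Both were over 2-fold higher in replicate 1. For Myocd the direction depended on the measure. By RSEM it was lower in replicate 1, with 0.34 TPM there and 0.43 in replicate 2. Its 49 counts in replicate 1 and 32 counts in replicate 2 gave a ratio of 1.70, the other direction. By kallisto it was also higher in replicate 1, with 0.459 TPM there and 0.261 in replicate 2. The most abundant of the list, Tpm2, a tropomyosin, had 22.5 TPM in replicate 1 and 23.7 TPM in replicate 2. Tagln, the actin-binding protein SM22, had 22.7 TPM in replicate 1 and 15.6 in replicate 2. The median log2 ratio of the 7 genes was 0.42, against 0.07 for all nuclear protein-coding genes whose mean reached 1 TPM. Collagen and other stromal genes were also somewhat higher in replicate 1, with a summed level over 8 genes of 507 TPM in replicate 1 and 410 TPM in replicate 2. Smooth muscle of vessels cannot be separated here from that of capsule or other tissue, and the part of lymph node or liver tissue in the Acta2 and Myh11 difference was not tested.

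**Figure D4:**
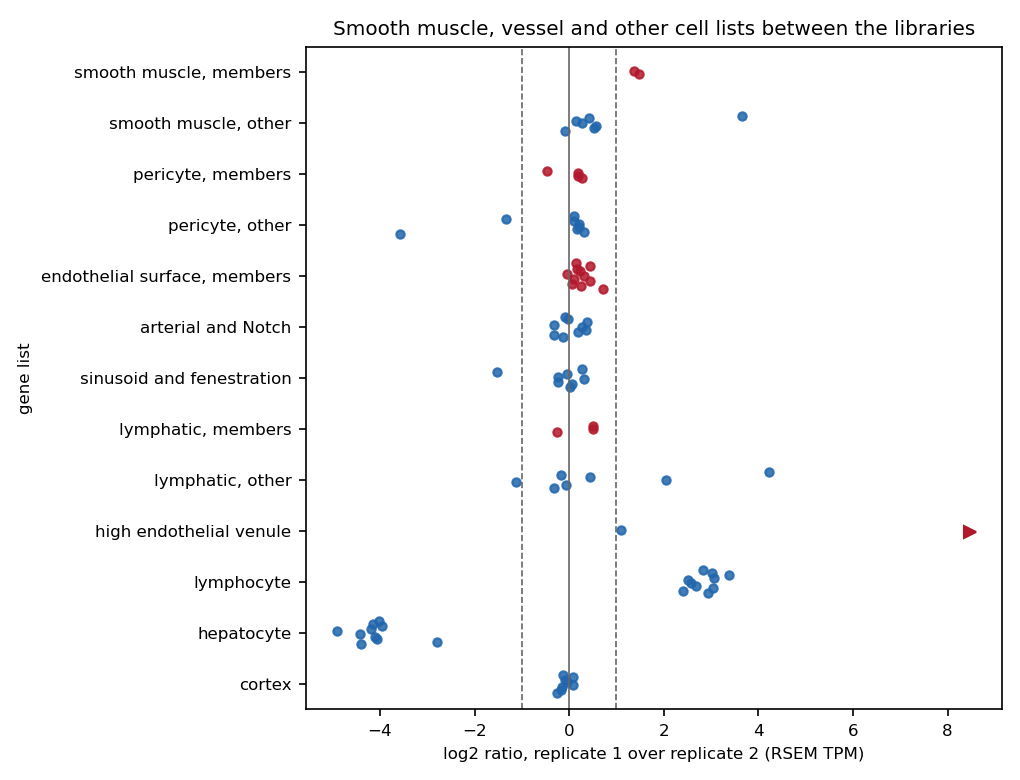
Log2 ratio of replicate 1 over replicate 2 for single genes whose mean reached 1 TPM, by list, with red points for members, blue points for other genes, dashed lines at 2-fold and a red triangle for the lower bound of Glycam1. Hepatocyte genes lie far to the left and lymphocyte genes to the right, while cortical, endothelial and arterial genes lie near 0 and the 2 smooth muscle members lie to the right of the dashed line.

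Myh11 transcripts were mainly of the SM1 form, which has the longer tail. SM1 took 88.5% of coding Myh11 TPM in replicate 1 and 89.3% in replicate 2, and 84.4 ± 0.612% by kallisto (SD, n = 2). The form with SM1 tail and a head insert, known from fast phasic smooth muscle, took 7.27% in replicate 1 and 10.7% in replicate 2, and 8.77 ± 0.162% by kallisto. The SM2 form, whose extra tail exon brings an earlier stop, took 4.18% in replicate 1 and was at 0 in replicate 2 by RSEM, on 45.4 and 0 counts, and took 6.84 ± 0.450% by kallisto (SD, n = 2). The head insert has 21 bases and the tail exon 39 bases; they are shown because they separate the 3 forms, with the exon in capitals and neighbouring bases in lower case, from the GENCODE annotation on the minus strand of GRCm38.
Myh11 head insert, chr16:14248580-14248600: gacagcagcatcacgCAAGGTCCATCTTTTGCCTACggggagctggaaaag
Myh11 tail exon, chr16:14198050-14198088: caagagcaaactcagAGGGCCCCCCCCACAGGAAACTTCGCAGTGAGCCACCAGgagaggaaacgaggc

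The Acta2 promoter is shown because smooth muscle genes are classic targets of serum response factor, which binds the CArG box. Whether that factor had a part in the Acta2 and Myh11 difference between the libraries was not tested. The motif searched was CCNNNNNNGG with at least 5 of the 6 middle bases A or T, a pattern that reads the same on both strands. In a window of 250 bases before to 50 bases after the RefSeq start, Acta2 held 2 matches, which begin at -84 and -34 from the start. A match was present in 9.98% of 32851 RefSeq promoter windows, in 5 of 32 windows of the 25 members with an entry, and in 1 of 8 windows of the smooth muscle genes, that of Acta2. The smooth muscle genes number 12, and Myh11, Tagln, Actg2 and Myocd were not searched for want of a window. The 100 bases before the start follow, with the matches in capitals, from RefSeq on the minus strand of GRCm38.p6.
Acta2 promoter, chr19:34255374-34255473: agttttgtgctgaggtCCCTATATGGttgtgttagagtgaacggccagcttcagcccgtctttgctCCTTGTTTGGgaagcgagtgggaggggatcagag

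The endothelin receptors were both detected and ran in opposite directions. Ednrb, the receptor of endothelium and of neural crest cells, had 14.1 TPM in replicate 1 and 12.0 TPM in replicate 2. Ednra, the constricting receptor of smooth muscle and pericytes, had 6.91 TPM in replicate 1 and 7.49 in replicate 2, and did not follow Acta2. Ednra was 0.554 of Ednrb, with a log2 ratio of -0.85 ± 0.242 (SD, n = 2). Among the ligands, Edn2 was listed at 0 in both libraries. Of 10 genes of endothelin processing and nitric oxide signalling, 6 were detected in both libraries and none was over 2-fold apart. Cav1, the caveolar coat protein, which fat also expresses, averaged 102 ± 1.30 TPM, and Ece1, the endothelin-converting enzyme, averaged 62.4 ± 12.0 TPM. The 3 Ednrb transcripts all encode the same 442 codons, and the leading one differed between RSEM and kallisto.

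Across the whole set the libraries were close. Among the 38 genes whose mean reached 1 TPM, 25 lay within 1.2-fold. That share was not computed over all nuclear protein-coding genes, so it does not set the members apart from them. Of the 38, 27 were higher in replicate 1 and 11 in replicate 2, against 62.5% of 12535 nuclear protein-coding genes higher in replicate 1. With TMM scaling the split was 23 of 39 higher in replicate 1. The median log2 ratio of the 38 genes was 0.11, against 0.07 over all nuclear protein-coding genes at that level. Among these 38 genes the largest gaps in gene-level RSEM TPM after the smooth muscle genes were those of Vwf, Pdpn, Lyve1, Cspg4 and Apln. The order differs by counts or on coding transcripts alone. Kallisto gave higher levels than RSEM for 38 of the 40 genes, with a median ratio of 1.44, against 1.52 over all nuclear protein-coding genes detected in both libraries. The ratio ran up to 1.97 for Acta2 and down to 0.928 for Vwf. The direction between the libraries was the same by both for 36 of 40 genes, and the 4 exceptions, Aplnr, Vegfc, Angpt1 and Angpt2, were at most 1.2-fold apart in both. Of 172 annotated transcripts of the 40 genes, 116 are coding, and the leading transcript was the same by both quantifications in 32 genes. The other 8 were Ednrb, Egfl7, Eng, Erg, Pecam1, Pgf, Robo4 and Sox17.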

How the data were processed

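Gene and transcript tables with expected counts and TPM were deposited by the authors; the deposited file list says that they come from transcriptome alignments on mm10 and the M21 release of GENCODE. The columns carry RSEM's names, per the file headers. The same deposited tables hold a posterior mean TPM, the bounds of its credible interval (a signal without a fixed total) and the percent of a gene's TPM on each transcript, which was recomputed here. Lengths in bases are another deposited column. A second deposited table with kallisto's column names, per the file headers, holds estimated counts and TPM per transcript, which were summed to genes. For the aligner and all tool versions of the authors, nothing is stated here because they are not given in the sources used. Alignment of CAST reads to the C57BL/6J reference could lower their counts, an effect that was not measured. Total RNA holds unspliced transcripts, whose reads can be assigned to retained-intron entries.

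The 40 members and all lists were chosen with earlier results of these data known. Named were all members and, of each further vessel list, the 2 highest by mean TPM. Also named were genes over 2-fold apart with a mean of 1 TPM or more, and genes at 0 in both libraries. Stab1, Ptprb, the remaining sinusoid genes, Actg2, Lmod1, Myocd, Edn1 and Edn3 were chosen after their values were seen. Detected means at least 1 TPM in both libraries. Ratios are replicate 1 over replicate 2, without pseudocount. The main count of members called beyond 2-fold used genes whose mean reached 5 TPM, and the calls within lists used 1 TPM. Isoform classes came from the annotated coding exons. Counting intervals are 95% Clopper-Pearson intervals of the count ratio per nuclear protein-coding count. TMM factors came from edgeR 4.0.16 (R 4.3.3). Python 3.11.15 was used with numpy 2.4.6, pandas 2.3.3, matplotlib 3.10.9 and scipy 1.17.1. The fold call was tested on simulated data. Alternatives were kallisto, posterior mean TPM, TMM, spike-in and protein-coding scaling, other minimums, pseudocounts, a 1.5-fold call and leaving out each library.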

Additional observations from a re-analysis of the deposited data

How the results depend on the processing

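The count of members over 2-fold apart was 1 as reported, and 2 with kallisto TPM, with TMM-scaled counts, with a mean of at least 1 TPM, with no minimum and with a 1.5-fold threshold, and 0 with a mean of at least 20 TPM, which only 12 members reach. Acta2 kept a log2 ratio of 1.30 to 1.45 and Myh11 one of 1.41 to 1.56 over the scalings and quantifications tried. The median log2 ratio of the members was 0.11 as reported and 0.19 with spike-in scaling, where the median over all nuclear protein-coding genes was 0.15, against 0.07 as reported. Of 77 values of the 11 ratios between members, 76 kept their sign, and the exception was Pdgfb over Pdgfrb on coding transcripts alone, a setting chosen after seeing the data. Of 200 member ratios recomputed, 12, in 10 members near equality, had the other sign and 1 had another call. No paired analysis was possible because the series has 1 group. With 2 libraries no spread between animals can be estimated beyond their own difference, and genes under about 1 TPM rest on few counts.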
